A study of Homo sapiens with 6 samples.

Results

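The DNA replication machinery is described here by 55 genes, taken by their symbols out of the 28395 genes listed in the deposited table of HCC827 cells treated with DMSO or erlotinib. The genes were given by name, from the assembly of the origin to chromatin behind the fork, and all 55 were found and all 55 had enough signal to be tested. HCC827 is an established human lung adenocarcinoma line whose EGFR gene has a small in-frame deletion that keeps the receptor kinase active, and both groups carry this mutation. Erlotinib is a small molecule that binds the kinase domain of EGFR and blocks it. The DMSO group held 3 libraries of cells that received the solvent for 24 h, and the erlotinib group held 3 libraries of cells that received 1 μM of the drug for 24 h. The results are those of a single cell line at a single dose and time. The labels do not say whether the libraries of a group came from separate cultures, so p-values measure the spread between these libraries, which may be technical. The erlotinib libraries are called 4, 5 and 6, as in the deposited table.

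Replication of the genome is prepared in G1, when the origin recognition complex binds DNA and, together with CDC6 and CDT1, loads the MCM2 to MCM7 helicase as an inactive ring. In S phase the kinases CDK2 and CDC7 switch on the helicase by adding CDC45 and the GINS complex, and polymerase alpha with primase, polymerases delta and epsilon, the PCNA clamp and its loader RFC copy the DNA behind it. Many of these genes are transcribed in step with the cell cycle through the E2F transcription factors, which are held back by the retinoblastoma protein until growth factor signalling releases them. EGFR is the growth factor receptor that drives proliferation in EGFR-mutant lung cancer cells.

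The libraries held 20858083, 24641819 and 21172884 reads on genes in DMSO, and 21944007, 20760204 and 21678395 reads in erlotinib libraries 4, 5 and 6. Values are given as signal, which is the reads of a gene divided by the size factor of its library. The 55 replication genes took 0.448, 0.470 and 0.457% of all signal in the DMSO libraries and 0.141, 0.140 and 0.139% in the erlotinib libraries. The 15 listed genes of the mitochondrial genome took 8.65, 6.15 and 6.95% in DMSO and 8.61, 9.31 and 8.23% with erlotinib, ranges that overlap.

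The cells were checked against markers of their labelled type. EPCAM, an epithelial adhesion molecule, stood at a signal of 9852 ± 235 in the DMSO group and 9485 ± 281 in the erlotinib group (SD, n = 3 each), and the keratins KRT7, KRT8, KRT18 and KRT19 were abundant in every library. NKX2-1, the transcription factor that defines lung and alveolar lineage, had 3002 ± 209 and 8644 ± 408 (SD, n = 3 each). SFTPB, a surfactant protein of alveolar cells, was close to 0 in both groups, with 8.23 in DMSO and 10.5 with erlotinib. Of the 10 epithelial and lung markers with enough signal to test, 5 were lower with erlotinib, 3 were higher and 2 were neither. Over all genes tested, 35.4% were lower and 35.3% were higher (limma, adjusted p-value under 0.05). The lower markers were KRT18 (log2 fold change -1.25), KRT8 (-0.83), EGFR (-0.81), KRT7 (-0.63) and KRT19 (-0.39). The higher ones were NAPSA (1.92), NKX2-1 (1.53) and CLDN4 (0.93), while EPCAM and CDH1 were neither.

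Most markers of other cell types were near 0, but the summed signal of each such list was higher in the erlotinib libraries than in the DMSO libraries. Among 7 leukocyte markers, TYROBP was at 0 in all libraries and PTPRC had at most 6 reads in any library, while CD68, a lysosomal protein, made up most of a summed signal of 2787, 2795 and 3172 in DMSO and 3241, 3538 and 3473 with erlotinib. The 7 fibroblast markers summed to 73.7, 75.2 and 109 in DMSO and 260.2, 223 and 215 with erlotinib, most of it COL1A1, and THY1 was at 0. The 6 endothelial markers summed to 34.0, 15.8 and 24.6 and 58.1, 46.5 and 48.7, with PECAM1 (15.7) leading in DMSO, VWF (27.4) leading with erlotinib, and CLDN5 at 0. The 12 ciliated cell markers summed to 516, 605 and 452 in DMSO and 2429, 2193 and 3010.4 with erlotinib. DNAH5 held most of this, 7 of the 8 tested ciliated markers were higher, beside the 35.3% of all genes, and DNAI2 was at 0. The largest rises in mean signal by fold change were those of FOXJ1 (1.38 to 149), CAPS (25.5 to 316) and TPPP3 (11.3 to 76.6). HYDIN was the tested marker that was neither lower nor higher. The part of these markers in the changes of the replication genes was not tested.

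All 55 replication genes were lower with erlotinib at an adjusted p-value under 0.05 (limma with Benjamini-Hochberg adjustment over all 14215 genes tested), and 0 were higher. Over all genes tested, 35.4% were lower and 35.3% were higher by the same rule. With each library scaled to its total reads in place of the size factors, 27.8% of all genes were lower and 43.3% higher, and the replication genes still counted 55 lower and 0 higher. By edgeR with TMM factors (34.8% of all genes lower and 35.8% higher) and by DESeq2 (34.7% lower and 34.8% higher) the number of higher replication genes was also 0, and since every log2 fold change was below 0, it was 0 at an unadjusted p-value under 0.05 too. In each of the 55 genes the 3 erlotinib libraries lay below the 3 DMSO libraries, which held for 36.9% of all genes.

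The falls were large. The median log2 fold change of the replication genes was -2.06, a 4.17-fold lower signal, against 0.02 over all genes tested. The smallest fall was that of ORC4 (-0.57) and the largest that of MCM10 (-4.41), with standard errors between 0.067 and 0.27 and adjusted p-values of at most 0.00063 (limma). The order at the top depended on the setting: with 10 added to the signal, CLSPN and CDC6 fell more than MCM10. A fall of at least 1 log2 unit was seen in 48 of the 55 genes and in 10.8% of all genes. A fall of at least 2 log2 units was seen in 28 of the 55 and in 2.53% of all genes, and one of at least 3 log2 units in 9 of the 55 and in 0.556%. Ranked by fold change among all genes tested, 13 replication genes stood among the 100 that fell most and 32 among the 500 that fell most. The summed signal of the 55 genes was 105934, 107651 and 103484 in the DMSO libraries and 28532, 28681 and 28109 in the erlotinib libraries, so 26.9% remained. In RNA from whole cultures, fewer cells in S phase and less RNA of these genes per cell cannot be told apart.

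**Figure D1:**
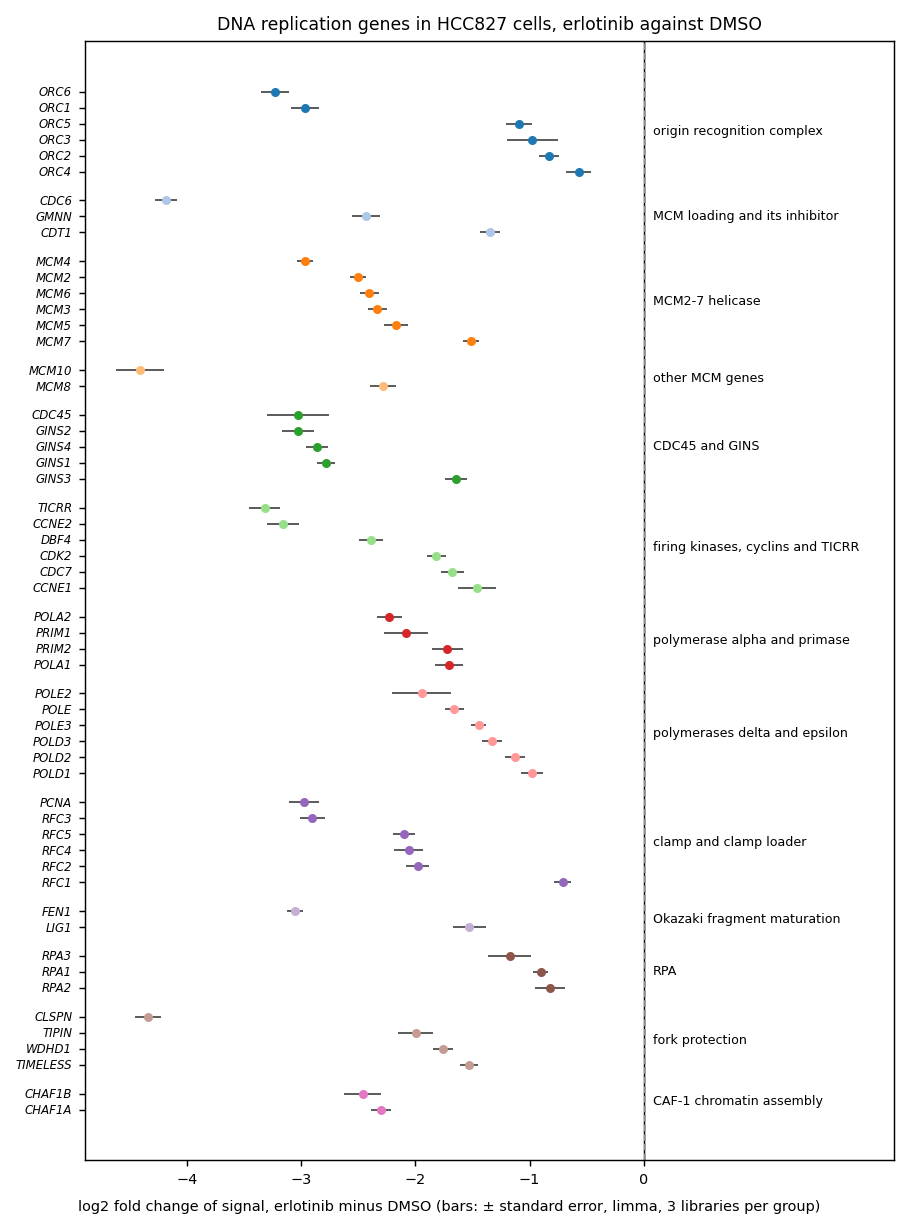
Log2 fold change of signal, erlotinib minus DMSO, of the 55 replication genes grouped by role, with bars for ± the standard error from limma (3 libraries per group), a solid line at 0 and a dashed line at the median of all genes (0.02). Every point lies left of 0, from MCM10 at -4.41 to ORC4 at -0.57, and the spread within a role group is wider than the error bars in most groups.

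The promoters of 5 members are shown to give the sequence beside the change, 3 from the genes that fell most (MCM10, CLSPN and CDC6), 1 from the helicase (MCM6), and RFC1, which fell little. They come from RefSeq on build GRCh38.p14, and run from 200 bases before the transcription start to 30 bases from it, 5′ to 3′ on the strand of the gene. Capitals mark E2F-type letters, here TTTCGCGC, TTTGGCGC, TTTCCCGC or TTTGCCGC on either strand. CDC6 is shown for chr17:40287679-40287908, plus strand, CLSPN for chr1:35769949-35770178, minus strand, MCM6 for chr2:135876414-135876643, minus strand, MCM10 for chr10:13161358-13161587, plus strand and RFC1 for chr4:39366333-39366562, minus strand.
CDC6: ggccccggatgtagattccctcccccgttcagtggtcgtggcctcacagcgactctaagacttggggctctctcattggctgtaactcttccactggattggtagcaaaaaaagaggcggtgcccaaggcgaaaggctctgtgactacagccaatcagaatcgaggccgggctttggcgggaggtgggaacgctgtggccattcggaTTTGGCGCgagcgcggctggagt
CLSPN: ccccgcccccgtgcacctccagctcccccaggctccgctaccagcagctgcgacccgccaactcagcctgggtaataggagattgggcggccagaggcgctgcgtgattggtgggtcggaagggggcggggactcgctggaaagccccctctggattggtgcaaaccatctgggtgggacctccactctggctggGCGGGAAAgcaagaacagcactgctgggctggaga
MCM6: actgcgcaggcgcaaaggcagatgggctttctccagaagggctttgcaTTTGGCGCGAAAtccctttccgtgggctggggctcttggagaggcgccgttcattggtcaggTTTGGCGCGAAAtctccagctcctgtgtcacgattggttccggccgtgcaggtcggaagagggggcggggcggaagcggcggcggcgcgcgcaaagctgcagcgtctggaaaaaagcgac
MCM10: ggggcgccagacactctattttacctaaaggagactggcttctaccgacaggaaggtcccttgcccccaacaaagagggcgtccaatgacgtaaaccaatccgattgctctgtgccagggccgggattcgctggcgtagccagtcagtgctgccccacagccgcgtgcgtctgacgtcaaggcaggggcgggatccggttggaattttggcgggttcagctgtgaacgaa
RFC1: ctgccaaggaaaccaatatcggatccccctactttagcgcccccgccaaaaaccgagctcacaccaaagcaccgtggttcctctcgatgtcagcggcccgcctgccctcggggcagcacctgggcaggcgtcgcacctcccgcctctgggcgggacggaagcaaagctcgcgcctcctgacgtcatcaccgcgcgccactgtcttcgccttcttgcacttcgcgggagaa
In MCM6 the capital run TTTGGCGCGAAA occurs 2 times, beginning 152 and 90 bases before the start, and each run holds TTTGGCGC on the strand of the gene overlapping TTTCGCGC on the other strand. CDC6 holds TTTGGCGC from base 8 of the transcript, and CLSPN holds TTTCCCGC on the other strand, from 5 bases before the start. The windows of MCM10 and RFC1 hold none of these letters, which says only that they are not in this window.

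Over the full entries of 300 bases (250 before and 50 from the start), 47 of the 55 genes had a promoter in the table, and 22 of them (46.8%) held an E2F-type motif. The share was 3.99% over all 27305 genes with an entry and 6.55% over the 11130 of them that were tested. Genes with several entries were counted as holding a motif if any entry did. The fold changes of members with and without the motif overlapped widely, with medians of -2.26 in the 22 genes with it and -1.98 in the 25 without it. The CCAAT box (CCAAT on either strand) was found in 27 of the 47 (57.4%), against 39.7% of all genes with an entry and 42.8% of those that were tested. The log2 fold changes again overlapped widely, from -4.41 to -0.71 (median -2.30) in members with it and from -3.05 to -0.57 (median -1.74) in those without it. The CHR-type letters TTTGAA or TTCGAA, known from genes of G2 and mitosis, were in 3 of the 47 (6.38%), against 19.5% of all genes with an entry and 15.4% of those that were tested. Those 3 genes were MCM6, DBF4 and POLE3. A match to such letters is a description of the sequence and was not tested for binding.

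The origin recognition complex, the platform on which the helicase is loaded, fell unevenly. All 6 subunits were lower, but the log2 fold changes of ORC6 and ORC1 were near -3 log2 units and those of ORC5 (-1.09), ORC3 (-0.98), ORC2 (-0.83) and ORC4 (-0.57) were near -1 or smaller, with a median of -1.03 over the 6. ORC6, the smallest subunit, which helps to close the loaded helicase ring (Entrez gene 23594, chromosome 16, 46689659 to 46698394 of GRCh38), gave 1181, 1496 and 1352 in the DMSO libraries and 124, 163 and 139 in erlotinib libraries 4, 5 and 6 (log2 fold change -3.23, SE 0.12, where SE is the standard error). ORC1, the ATPase subunit that is degraded and remade in each cell cycle (Entrez gene 4998, chromosome 1, 52372829 to 52409503 of GRCh38), had 1341, 1366 and 1192 in DMSO and 139, 193 and 167 with erlotinib (-2.97, SE 0.12). For ORC6 and ORC1 the lowest DMSO library was more than 6 times the highest erlotinib library. ORC4, a stable core subunit (Entrez gene 5000, chromosome 2, 147930396 to 148021551 of GRCh38), had 602, 677 and 719 in DMSO and 477, 407 and 462 with erlotinib (log2 fold change -0.57, SE 0.11, adjusted p = 8.2e-05, limma). Its groups were close but did not overlap. ORC1, ORC3 and ORC4 overlap other genes (PRPF38A, AKIRIN2, and MBD5 and ACVR2A) that had 43.3 to 1626% of their mean signal over the 6 libraries, and the strand that was counted is not stated in the sources used here, so reads in the shared stretches cannot be assigned.

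The factors that load the helicase on the origin complex, and their inhibitor, were all lower, and the loaders moved by very different amounts. CDC6 is the ATPase that joins the origin complex to recruit MCM rings. It fell most after MCM10 and CLSPN, or after CLSPN alone with 10 and not 1 added to the signal. Its signal was 3046, 3294 and 2915 in DMSO and 154, 187 and 165 with erlotinib, an 18.2-fold lower signal (-4.19, SE 0.099). CDT1, which escorts the helicase to the origin, had 2259.7, 1867 and 2112 in DMSO and 846, 837 and 768 with erlotinib (-1.34, SE 0.086). GMNN, geminin, which binds CDT1 and prevents loading again within the same cycle, had 737, 881 and 938 in DMSO and 159, 143 and 168 with erlotinib (-2.43, SE 0.13). Per kilobase of transcript, the levels of CDC6 (676 ± 42.1) and CDT1 (781 ± 74.5) in DMSO did not differ beyond their spread. With erlotinib CDC6 was at 37.0 ± 3.69 against 307 ± 16.1 for CDT1 (SD, n = 3 each).

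The genes of the MCM helicase ring fell together, with a median of -2.37 on the log2 scale over 6 genes and at least 1 log2 unit in each. MCM4 fell most, from 8295, 8485 and 7606 in DMSO to 1016, 1088 and 1016 with erlotinib (-2.96, SE 0.070). MCM2 had 6355, 5864 and 6342 in DMSO and 1084, 1056 and 1129.8 with erlotinib (-2.50, SE 0.069). MCM6 (-2.41), MCM3 (-2.33) and MCM5 (-2.17) lay between. MCM7 fell least, from 9119.5, 7972 and 9191 to 3085, 3073 and 3021 (-1.51, SE 0.068), so that its signal was 2.86-fold lower where that of MCM4 was 7.81-fold lower. The microRNA genes MIR25, MIR93 and MIR106B overlap MCM7, each with less than 1% of its mean signal over the 6 libraries. AP4M1 also overlaps it, with a mean signal of 62.9 in DMSO and 194 with erlotinib, against 8761 and 3060 for MCM7.

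The proteins of the ring are present in equal numbers in the helicase, so the shares of their transcripts were compared per kilobase of transcript. MCM7 made up 38.4, 35.6 and 39.4% of the summed signal per kb of the 6 genes in the DMSO libraries and 55.8, 56.1 and 56.0% in the erlotinib libraries. The erlotinib libraries agreed closely, at 56.0 ± 0.143%, against 37.8 ± 1.95% in DMSO (SD, n = 3 each). The share of MCM4 went from 21.3 ± 1.62% to 11.6 ± 0.458%, and that of MCM2 from 19.2 ± 0.353% to 14.3 ± 0.638% (SD, n = 3 each). MCM3, MCM5 and MCM6 each had 3.46 to 9.97% in DMSO and 3.24 to 8.36% with erlotinib. Lengths are those of 1 GENCODE transcript per gene, and other isoforms would move the shares of both groups.

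**Figure D2:**
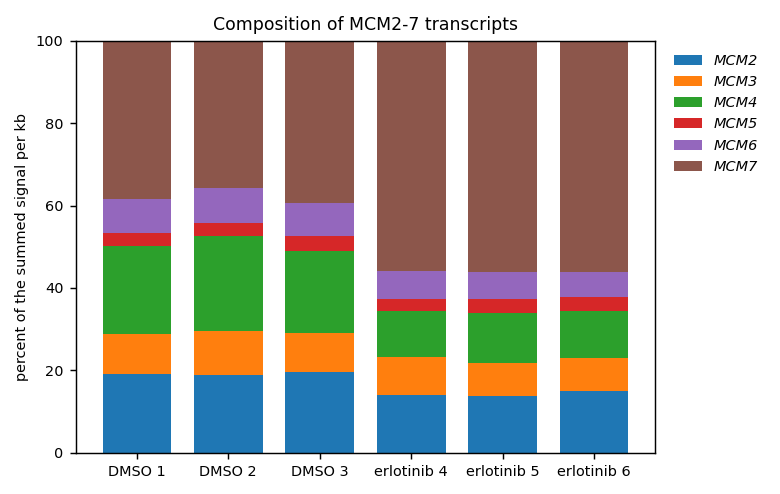
Share of each MCM gene in the summed signal per kilobase of MCM2 to MCM7, in percent, as stacked bars for the 3 DMSO and the 3 erlotinib libraries. The MCM7 segment grows from 37.8 ± 1.95% in DMSO to 56.0 ± 0.143% with erlotinib, and the MCM4 segment shrinks from 21.3 ± 1.62% to 11.6 ± 0.458%.

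The other MCM genes do not belong to the ring of the replicative helicase. MCM10, which helps the assembled helicase to start unwinding (Entrez gene 55388, chromosome 10, 13161558 to 13211110 of GRCh38), fell most of all 55 genes in the main analysis. It had 471, 641 and 453 in DMSO and 18.5, 27.7 and 24.3 with erlotinib, a 21.3-fold lower signal (log2 fold change -4.41, SE 0.21, adjusted p = 1.2e-13, limma). Its lowest library, erlotinib 4, still held 20 reads. The log2 fold change of CLSPN (-4.34) lay within the standard error of MCM10. With 10 added to the signal, CLSPN and CDC6 fell more than MCM10. MCM8, a helicase of recombination and repair, had 952, 1187 and 996 in DMSO and 202, 214 and 223 with erlotinib (-2.28, SE 0.11). MCM9, not one of the 55 genes, was neither lower nor higher (0.11, adjusted p = 0.49, limma). Of all genes tested, 0.0352% fell more than MCM10.

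CDC45 and the 4 GINS subunits complete the active helicase, and 4 of these 5 genes fell by more than 2 log2 units (median -2.86). CDC45, the partner that is recruited as the origin fires, ranked 53 of the 55 genes by level per kb in DMSO, with a signal of 157, 149.5 and 119.9 in DMSO and 13.8, 17.8 and 17.8 with erlotinib (-3.03). Its standard error of 0.27 was the largest of the 55 genes, and its lowest library held 15 reads. GINS2 had 739.6, 809 and 630.4 in DMSO and 91.4, 86.1 and 85.2 with erlotinib (-3.03, SE 0.14). GINS4 (-2.86) and GINS1 (-2.78) were close to it. GINS3 stood apart, at 1282, 1282 and 1242 in DMSO and 408, 447 and 365 with erlotinib (-1.64, SE 0.097). GINS2 overlaps GSE1, whose mean signal was 1131% of its own.

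The genes that fire origins were all lower, with a median of -2.10 over 6 genes. TICRR, the scaffold also called treslin through which CDK activity leads to CDC45 recruitment, had 841, 866 and 925 in DMSO and 98.7, 73.3 and 89.9 with erlotinib, a 10.0-fold lower signal (-3.32, SE 0.14). CCNE2, a cyclin that activates CDK2 at the entry into S phase, had 718, 939 and 797 in DMSO and 81.2, 91.1 and 98.3 with erlotinib (-3.16, SE 0.14). CCNE1, its close relative, was the less changed of the cyclin E pair, with 276, 259 and 264 in DMSO and 89.5, 116 and 85.2 with erlotinib (-1.46, SE 0.17). Per kilobase, CCNE2 stood above CCNE1 in DMSO (306 ± 41.8 against 136 ± 4.33) and below it with erlotinib (33.7 ± 3.21 against 49.6 ± 8.49, SD, n = 3 each). DBF4, the activating subunit of CDC7, had a log2 fold change of -2.39, the kinase CDC7 -1.68, and CDK2 -1.82. CCNE2 overlaps INTS8 and NDUFAF6, with 296 and 50.5% of its mean signal, and TICRR overlaps KIF7, with 28.2%. A partial copy of DBF4 on chromosome 10 covers 67.7% of its transcript at 97.4% identity.

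Polymerase alpha and primase, which lay down the RNA and DNA primers of each strand, fell by similar amounts, from -1.71 to -2.23, and their median was -1.90. POLA2, the regulatory subunit, had 1098, 993 and 1076 in DMSO and 202, 226 and 247 with erlotinib (-2.23, SE 0.11). PRIM1, the catalytic subunit of primase, had 216, 215 and 184 in DMSO and 43.4, 50.5 and 48.7 with erlotinib (-2.08, SE 0.20). POLA1, the catalytic subunit of the polymerase, fell least, from 661, 729 and 581 to 187, 197 and 216 (-1.71, SE 0.12). The 4 genes differed from each other by 0.52 log2 units at most, a range of the size of a few standard errors. PRIM2 (-1.72) overlaps RAB23, with 250.5% of its mean signal, and has partial copies elsewhere in the genome, which cover 66.4 and 76.6% of its transcript.

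Polymerases delta and epsilon, which copy most of the lagging and the leading strand, fell less, and 0 of their 6 genes fell by 2 log2 units. The median was -1.39. POLE2, a subunit of polymerase epsilon, had 112, 112 and 94.2 in DMSO and 23.1, 27.7 and 29.95 with erlotinib (-1.95, SE 0.26). POLE, the catalytic subunit of epsilon, had 1948, 1718 and 1897 in DMSO and 579.5, 609.8 and 567 with erlotinib (-1.66, SE 0.085). POLD1, the catalytic subunit of delta, had 1182, 1042 and 1259.7 in DMSO and 616, 578 and 570.1 with erlotinib (-0.98, SE 0.094), so that 50.6% of its signal remained. POLE3, a histone-fold subunit of epsilon, had a log2 fold change of -1.45, against -1.33 for POLD3 and -1.13 for POLD2. The gap between POLE3 and POLD3 was smaller than the sum of their standard errors. POLE4, the partner of POLE3 and not one of the 55 genes, had -0.95, and POLD4, the small subunit of delta and not one of the 55 either, was higher with erlotinib (0.99), so the subunits of each polymerase did not move by 1 common amount.

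PCNA, the sliding clamp that tethers polymerases to DNA, and the subunits of its loader had a median of -2.08. PCNA (Entrez gene 5111, chromosome 20, 5114953 to 5126622 of GRCh38) had 1011, 1405 and 1144 in DMSO and 169, 138 and 140.4 with erlotinib, a 7.88-fold lower signal (-2.98, SE 0.13). RFC3, a small subunit of the loader, had 1776, 2263 and 1806 in DMSO and 256, 279 and 241 with erlotinib (-2.90, SE 0.11). RFC5 (-2.10), RFC4 (-2.06) and RFC2 (-1.98), the other small subunits, which also serve in alternative loaders, were near -2. RFC1, the large subunit that marks the canonical clamp loader (Entrez gene 5981, chromosome 4, 39287456 to 39366362 of GRCh38), fell little, from 2628, 2935 and 2616 to 1664, 1687 and 1640.0 (-0.71, SE 0.073, adjusted p = 2.4e-08, limma). Its erlotinib libraries varied by an SD of 23.5 and lay well below the lowest DMSO library. Per kilobase, RFC1 stood below RFC3 in DMSO (559.8 ± 37.1 against 845 ± 118) and above it with erlotinib (342 ± 4.82 against 112 ± 8.44, SD, n = 3 each). RFC5 overlaps WSB2, with a mean signal of 141% of its own.

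FEN1 and LIG1 finish the lagging strand, the first by trimming the flap of each Okazaki fragment and the second by sealing the nick. FEN1 (Entrez gene 2237, chromosome 11, 61792911 to 61797238 of GRCh38) had 5588, 5815 and 5399 in DMSO and 671, 678 and 671 with erlotinib (-3.05, SE 0.071). The spread among the erlotinib libraries was only 4.10 (SD, n = 3) around a mean of 673. LIG1 had 361, 323 and 348 in DMSO and 112, 118 and 126 with erlotinib (-1.53, SE 0.14). A copy on chromosome 1 covers the whole FEN1 transcript at 95.5% identity, below the 97% set for a near-identical copy, and reads that match both places are not unique. Less similar copies, at 90.8 to 93.2% identity, were found for PRIM1, PCNA and ORC3.

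The replication protein A genes changed least among the role groups, with a median of -0.90. RPA coats the bare strand behind the helicase and is also used in repair. RPA1, the large DNA-binding subunit, had 4187, 4213 and 3939 in DMSO and 2249.8, 2209.6 and 2134 with erlotinib (-0.90, SE 0.067), so 53.4% of its signal remained. RPA2, the subunit phosphorylated under replication stress, had 605, 891 and 699 in DMSO and 436, 349 and 449 with erlotinib (-0.82, SE 0.13). RPA3, the small subunit, had 168, 217 and 193 in DMSO and 101, 72.3 and 82.4 with erlotinib (-1.17, SE 0.19). Relative to their means, the libraries of RPA2 and RPA3 varied more within a group than those of RPA1, and the groups did not overlap for any of them. RPA3 overlaps UMAD1, whose mean signal was 509% of its own.

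The genes that protect moving forks included the second largest fall in the main analysis, which was the largest with 10 added to the signal. CLSPN, claspin, the mediator that passes the stress signal from ATR to CHEK1, had 1640.4, 1687 and 1565 in DMSO and 80.3, 80.2 and 77.7 with erlotinib, a 20.3-fold lower signal (-4.34, SE 0.11, adjusted p = 1.8e-17, limma). TIPIN, a small adaptor that binds RPA at the fork, had 316, 345 and 332 in DMSO and 76.6, 80.2 and 89.9 with erlotinib (-1.9997, SE 0.16). TIMELESS, which forms a complex with TIPIN at the fork, had 1976, 2091 and 1924 in DMSO and 679, 694 and 700.2 with erlotinib (-1.53, SE 0.079). WDHD1, which links the helicase to polymerase alpha, had a log2 fold change of -1.76. CLSPN thus lay more than 2 log2 units below its 3 companions of the list, which were between -1.9997 and -1.53.

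CHAF1A and CHAF1B, subunits of the chromatin assembly factor that deposits histones on new DNA, fell by nearly the same amount. CHAF1A had 2279, 1993 and 2309.7 in DMSO and 456, 413 and 464 with erlotinib (-2.30, SE 0.090). CHAF1B had 394, 454 and 412 in DMSO and 88.6, 69.3 and 69.3 with erlotinib (-2.46, SE 0.16). The difference between them was about the standard error of CHAF1B. CHAF1A overlaps UBXN6, with 121% of its mean signal.

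**Figure D3:**
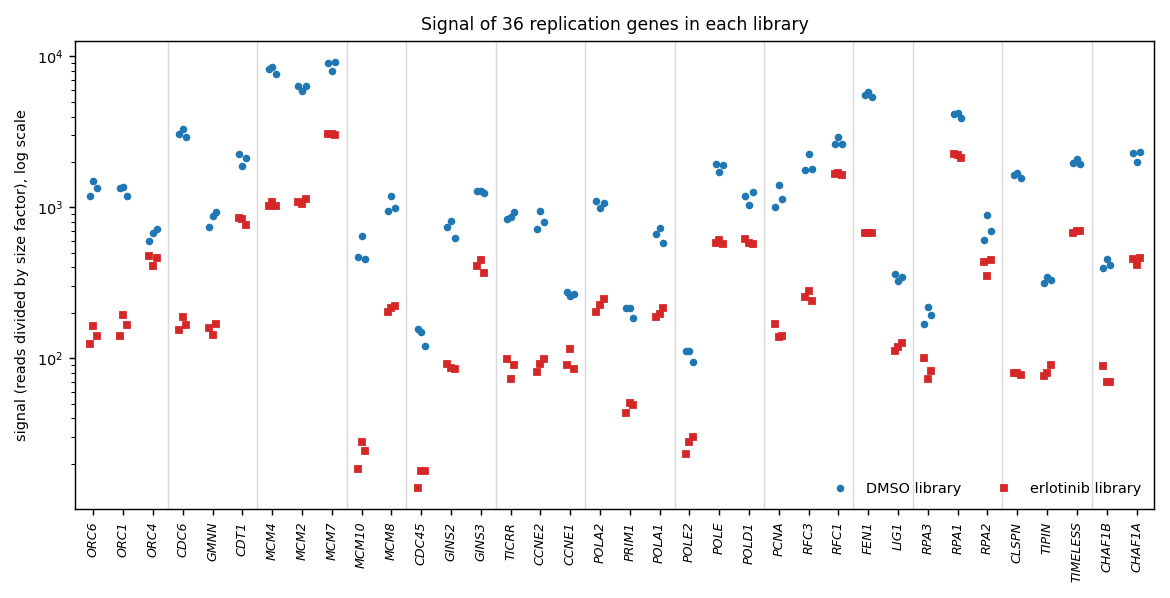
Signal (reads divided by the size factor, log axis) of 36 replication genes in each of the 3 DMSO libraries (circles) and the 3 erlotinib libraries (squares), with lines between role groups. In every gene the squares lie below the circles, far apart for MCM10, CLSPN and CDC6 and close for ORC4, RFC1 and RPA2.

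Licensing, helicase, polymerase and clamp genes were then compared as steps. The 9 licensing genes (origin complex, CDC6, CDT1 and GMNN) had a median log2 fold change of -1.34 and the widest range, from -4.19 to -0.57. The 11 helicase genes (MCM2 to MCM7, CDC45 and GINS) had a median of -2.50, and 9 of them fell by at least 2 log2 units. The 10 polymerase and primase genes had a median of -1.68, and 2 of them fell by as much. The 6 clamp and loader genes had a median of -2.08, and 4 of them did so. The ranges of the 4 steps overlapped, and since their genes are not replicates, no test between steps was made.

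Summed per kilobase, each step held less transcript with erlotinib in every library. The helicase genes summed to 12016, 11508 and 11674 signal per kb in DMSO and 2673, 2670.4 and 2589.8 with erlotinib, a 4.44-fold lower level. The licensing genes summed to 4084, 4337 and 4199 and 1029, 1101 and 1024, 4.001-fold lower. The clamp and loader genes were 4.11-fold lower and the polymerase genes 2.55-fold lower. The polymerase sum, 8314, 7892 and 8007 in DMSO and 3155, 3205 and 3145 with erlotinib, was below the helicase sum in all DMSO libraries and above it in all erlotinib libraries. POLD2 and POLE3 held most of the polymerase sum in both groups, and the other 8 genes together lay below the helicase sum in every library.

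To compare partners directly, the log2 ratio of 12 pairs of genes was taken in each library. The pairs were chosen by role, with earlier results of these data known, so their shifts describe the fold changes above and are not independent of them. An exact permutation test over the 20 ways to assign the 6 libraries to groups cannot give a two-sided p below 0.1, and 10 of the 12 pairs reached it (adjusted over the 12 pairs, p = 0.12), so none could pass 0.05 by this test. In those 10 pairs the DMSO and erlotinib libraries did not overlap. The share of other gene pairs without overlap was not counted, so this number has no background to be read against. CDC6 against ORC4 joins the licensing gene that fell most to the gene that fell least, so a wide shift follows from the choice of pair. Its log2 ratio was 2.34, 2.28 and 2.02 in DMSO and -1.62, -1.12 and -1.48 with erlotinib, a difference of -3.62. RFC3 against RFC1 went from -0.56, -0.37 and -0.53 to -2.70, -2.59 and -2.76 (difference -2.19). ORC1 against ORC2 went from -0.07, -0.14 and -0.26 to -2.56, -2.17 and -2.15 (difference -2.14). In these pairs the first gene lost more signal than its partner, as the fold changes of the single genes already show.

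The CDT1 to GMNN ratio moved the other way, since the inhibitor lost more transcript than the loader. Its log2 value was 1.61, 1.08 and 1.17 in DMSO and 2.41, 2.54 and 2.18 with erlotinib, a difference of 1.09. POLD1 against POLD3 was also higher, by 0.35, though its closest libraries were only 0.02 log2 units apart. MCM10 against MCM2 differed by -1.91, CCNE2 against CCNE1 by -1.70 and DBF4 against CDC7 by -0.71. Smaller shifts were those of POLA2 against POLA1 (-0.52) and POLE2 against POLE3 (-0.50). The groups overlapped for MCM2 against MCM8 (difference -0.22, exact permutation p = 0.3) and for RPA2 against RPA1 (difference 0.08, exact permutation p = 0.7), which does not show that these partners moved alike.

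**Figure D4:**
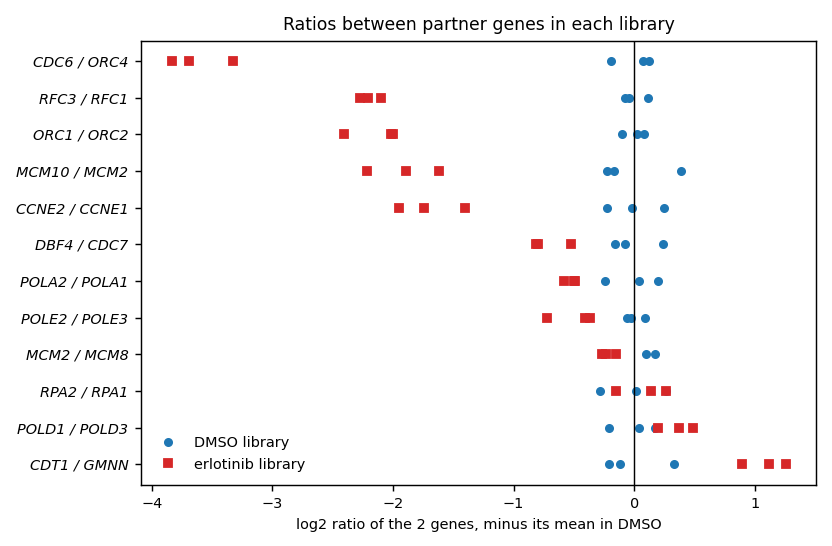
Log2 ratio of the signal of 2 partner genes in each library, minus its mean in DMSO, for 12 pairs (circles, 3 DMSO libraries; squares, 3 erlotinib libraries). CDC6 / ORC4 shifts most to the left (-3.62), CDT1 / GMNN shifts to the right (1.09), and circles and squares overlap for MCM2 / MCM8 and RPA2 / RPA1.

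Per kilobase of transcript, the levels of the 55 genes spread further apart with erlotinib. In DMSO they ran from 45.1 signal per kb (ORC3) to 3551 (MCM7), a 78.7-fold range, and with erlotinib from 5.17 (MCM10) to 1304 (POLD2), a 252-fold range. The highest levels in DMSO were those of MCM7 (3551 ± 277), POLE3 (3421 ± 253), POLD2 (2863 ± 368), FEN1 (2778 ± 104) and MCM4 (2001 ± 114) per kb (SD, n = 3 each), of which MCM7 and POLE3, and POLD2 and FEN1, did not differ beyond their spread. With erlotinib the order was POLD2 (1304 ± 81.3), POLE3 (1253 ± 30.1), MCM7 (1240.2 ± 13.8), RPA1 (453 ± 12.1) and RFC1 (342 ± 4.82), of which the first 3 lay within their spread. FEN1 went from rank 4 to rank 6 and MCM4 from rank 5 to rank 11, while RFC1 went from rank 23 to rank 5.

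Genes around the core machinery were counted in the same way, beside the 35.4% of all genes that were lower and the 35.3% that were higher. Of 29 other origin, fork and nucleosome factors, 24 were lower, 1 was higher and 4 were neither (median -1.51 on the log2 scale). DTL, the substrate receptor of the ubiquitin ligase that degrades CDT1 on PCNA, fell by 3.71, from 1753, 2136 and 1565 to 124, 158 and 130.1. DSCC1, a subunit of an alternative clamp loader, fell by 3.48, from 606, 723 and 657 to 63.7, 52.5 and 59.0. POLD4, the small accessory subunit of polymerase delta, was the gene that rose, from 903, 847 and 863 to 1710.0, 1804 and 1693 (0.99, SE 0.079), opposite to POLD1, POLD2 and POLD3. TOP2A, the most abundant gene of the list, had 15877 ± 1752 in the DMSO group and 2754 ± 147 in the erlotinib group (SD, n = 3 each).

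Of the 9 tested genes of the replication checkpoint, 6 were lower and 3 were neither (median -0.97), and RAD17 was listed at 0 in all 6 libraries. CDC25A, the phosphatase that activates CDK2, went from 1395, 1419 and 1432 to 177, 167 and 173 (-3.03). CHEK1, the checkpoint kinase that receives the signal through claspin, had a log2 fold change of -1.25. Of 8 translesion genes, which copy past damaged bases, 4 were lower, 1 was higher and 3 were neither (median -0.40). RAD18, the ligase that marks PCNA for translesion synthesis, had -1.91, POLH -0.87 and POLI, which rose, 1.14. Of 10 genes that replicate mitochondrial DNA, 8 were lower and 2 were neither (median -0.75), led by TFAM (-1.20), the packaging factor of that genome, and SSBP1 (-1.08).

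All 13 genes of the E2F and pocket protein list changed, 10 down and 3 up, with a median of -1.11. E2F1, an activator of replication genes, went from 2550.2, 2444 and 2688 to 341, 333 and 366 (-2.88, SE 0.086), and E2F7, a repressor that is itself an E2F target, had -2.88. RBL2, the pocket protein p130 of resting cells, rose from 1339, 1479 and 1232 to 3239, 2815 and 2970.2 (1.16, SE 0.081), while its relatives RBL1 (-1.84) and RB1 (-0.77) fell. TFDP2, a dimer partner of E2F, rose by 1.12 where TFDP1 fell by 1.51. Of 11 markers of S phase, G2 and mitosis, 11 were lower, with a median of -2.76. The largest falls were those of RRM2 (-4.14), which makes deoxynucleotides, and TYMS (-3.18), which makes thymidylate. E2F1 and these markers were lower in each erlotinib library than in each DMSO library, as the replication genes were, and their part in the falls was not tested.

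**Figure D5:**
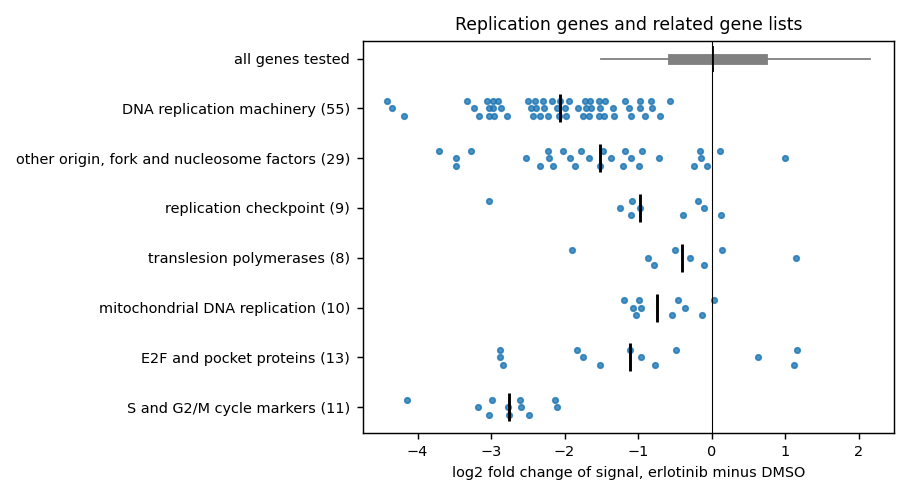
Log2 fold change of signal, erlotinib minus DMSO, for each gene of the replication machinery and of 6 related lists (points, with the number of genes tested in brackets and a vertical bar at each median), under a box for all genes tested. The replication machinery lies wholly below 0 around -2.06 and the S and G2/M markers around -2.76, while the E2F, translesion, other origin, checkpoint and mitochondrial lists hold points above 0 (up to 0.12 in the checkpoint and 0.02 in the mitochondrial list).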

How the data were processed

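RNA-seq was performed on HCC827 cells in 3 DMSO and 3 erlotinib libraries after enrichment of mRNA on oligo(dT) beads. The submitters' processing notes and methods name Bowtie2 2.3.4 and GRCh38 for mapping of the read pairs, featureCounts 1.6.3 for counting those with a unique position, and DESeq2 1.18.1 for the test. Bowtie2 does not split reads at introns, so reads across junctions can be lost. The values deposited by the authors have the unit signal, which is reads divided by 1 size factor per library (0.882 to 1.08). This was read from the values, 100% of which were whole multiples of their library's step within 0.01 reads. The strand counted is not given in the sources used here.

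Signal was tested with limma 3.58.1 (R 4.3.3) as log2(signal + 1), with a trend, keeping 14215 genes whose mean signal reached 10, two-sided, with Benjamini-Hochberg adjustment and a threshold of 0.05. A log2 fold change is on this scale and understates the change of low genes. Libraries of a group differed by more than counting error. The chi-square for each degree of freedom was 7.96 to 24.3 between DMSO libraries and 4.13 to 6.08 between erlotinib libraries. Among the DMSO pairs it was higher in those that held DMSO library 2. The method was tested on simulated data. Far fewer genes changed there than here, as many up as down, so that test does not cover changes this widespread. edgeR 4.0.16 and DESeq2 1.42.0 were run on the recovered reads as alternatives, with TMM factors, total reads, other pseudocounts and filters, and each library left out. Levels per kb used 1 transcript per gene of GENCODE release 44, and copies were sought with minimap2 2.31-r1302. The replication genes and all lists were chosen with earlier results of these data known. Values in each library are given for the 2 genes that changed most and the 1 that changed least in role groups of 4 or more, and for all genes of smaller groups. In the lists of related genes, the 2 largest falls and rises past the threshold are named, and genes beyond these were chosen after their values were seen.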

Additional observations from a re-analysis of the deposited data

How the results depend on the processing

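All 55 replication genes were lower, and 0 higher, under each of the 16 alternatives (edgeR with TMM or DESeq2-type factors, DESeq2, TMM factors or total reads in limma, pseudocounts of 0.1 and 10, no filter, a minimum of 10 reads in all libraries, a threshold of 0.01, and each library left out), and the highest adjusted p-value among the 880 values was 0.0051. The median log2 fold change of the replication genes was -1.88 with each library scaled to total reads, when the median of all genes was 0.19. It was -2.09 to -2.02 as each library was left out. Over all genes, 3955 to 5080 were lower and 4323 to 6156 higher, but the settings tested between 12859 and 19595 genes. As shares of the genes tested, 25.4 to 38.3% were lower and 28 to 43.3% were higher. The difference of POLE2 against POLE3 was -0.21 with a pseudocount of 10, at the low signal of POLE2, and that of RPA2 against RPA1 ran from -0.06 to 0.22 as each library was left out, so its direction is not settled. The other pairs kept their direction under both pseudocounts and without any library. No paired analysis was possible because the erlotinib columns carry the numbers 4 to 6 and the labels number the erlotinib samples 1 to 3. With 3 libraries per group, the exact permutation test of the partner ratios cannot give a p-value below 0.1, and the fold changes with the largest standard errors were those of CDC45, POLE2 and ORC3.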

Other observations

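Several replication genes share a promoter region with a gene transcribed in the opposite direction. Within 1000 bases, head to head, 16 of the 55 genes had 17 such neighbours by GENCODE starts, of which 16 were tested. Of these neighbours 5 were lower with erlotinib, 4 were higher and 7 were neither (limma, adjusted p-value under 0.05), beside 35.4% lower and 35.3% higher over all genes tested, so these counts are near the background. Their median log2 fold change was -0.16, against -1.79 for the replication genes across from them. PRKDC, a DNA repair kinase that starts 805 bases from MCM4, was lower too (-1.76, standard error 0.086), as were TRMT6 beside MCM8 (-1.05) and PRPF38A beside ORC1 (-0.95). FEN1 fell by 3.05 log2 units while TMEM258, which starts 312 bases away, was neither (-0.18, adjusted p = 0.46, limma). ORC6 and VPS35, a retromer subunit that starts 481 bases from it, were as far apart, with log2 fold changes of -3.23 and -0.14. AP4M1 beside MCM7 rose, from 62.9 ± 17.8 to 194 ± 15.9 (SD, n = 3 each), and so did PMEL beside CDK2, from 27.2 ± 15.4 to 96.5 ± 14.8. AP4M1, MBD5, PRPF38A and C9orf43 overlap their replication gene, so reads in the shared stretch cannot be assigned by strand. The list of neighbours was made by distance alone, and the reason for the differences was not tested.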
